A study of Mus musculus with 7 samples.

Results

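The ovarian surface epithelium, the cell layer that covers the fetal mouse ovary, was taken from the E14.5 and E16.5 libraries as the cells with at least 1000 detected genes, at least 3 UMIs of Upk3b, no UMI of Foxl2 and at most 1 UMI of Dazl and Ddx4 together. UMIs are the molecular tags by which single transcripts were counted. The rule chose 293 of 11417 cells at E14.5 (2.57%, exact binomial 95% interval 2.28 to 2.87) and 446 of 11042 at E16.5 (4.04%, 3.68 to 4.42), together 739 of the 22459 cells of both libraries and of the 52542 cells of the series. The epithelium was set against Gng13-high cells of the same library, with no UMI of Upk3b and at least 5 of Gng13, which stand for the pregranulosa (PG) cells that arise from it. They numbered 2199 at E14.5 and 979 at E16.5.

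The series holds 7 single-cell RNA libraries, 1 each from pooled gonads or ovaries of untreated wild-type C57BL/6J mice at E11.5 and E12.5, at E14.5 and E16.5, at E18.5, and after birth at P1 and P5. The organs were dissociated with trypsin and the cells captured in droplets. Every value thus comes from 1 library per age, with no replicate and no test, and the age of a library cannot be told apart from its dissociation, capture and sequencing. The E14.5 library held 88627169 UMIs (median 6251 per cell) and the E16.5 library 125415948 (median 10712). Epithelial cells were deeper than the library's typical cell, with a median of 9303 UMIs (range 1900 to 39132) and 2896 genes at E14.5 and of 16776.5 UMIs (3046 to 49520) and 4461.5 genes at E16.5. Gng13-high cells had medians of 6604 and 14218 UMIs.

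The E16.5 library stood apart from the other 6. It shared between 0 and 3 cell barcodes with any of them, whereas the other pairs of libraries shared between 22 and 136, although the labels give the same chemistry for all 7. It shared 1 barcode with the E14.5 library, and no epithelial barcode occurred at both ages. The median share of mitochondrial UMIs was 3.84% in the epithelium at E14.5 and 8.61% at E16.5, beside 5.53% and 12.2% in the Gng13-high cells. Differences between the ages are therefore given together with those of other cell classes of the same libraries and with the epithelium of the other ages.

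The surface epithelium derives from the coelomic epithelium, the mesothelial lining whose cells enter the gonadal ridge and give rise to somatic cells of the gonad. Mesothelial cells carry keratin filaments and membrane proteins such as mesothelin, mucin 16 and uroplakins, yet they also express genes more often linked with mesenchyme. In the fetal ovary, epithelial cells divide at the surface and feed the outer cortex with PG cells, which later surround the oocytes as follicle cells.

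Upk3b, which chose the cells, encodes a uroplakin of the apical membrane of mesothelium. Krt19 and Krt7 encode keratins of simple epithelia, and Igfbp2 encodes a secreted binding protein of insulin-like growth factors (IGFs). In mm10 (GENCODE vM21), Upk3b lies at chr5:136038496-136046487 on the plus strand, Krt19 at chr11:100140810-100148665 on the minus strand, Krt7 at chr15:101411043-101430313 on the plus strand and Igfbp2 at chr1:72824503-72852474 on the plus strand. The 250 bases before the RefSeq start (GRCm38.p6, plus strand for all) are shown for the markers that had an entry, since these genes set the class apart, and a second Igfbp2 start is not shown. They span chr5:136038246-136038495 for Upk3b, chr15:101412153-101412402 for Krt7 and chr1:72824230-72824479 for Igfbp2. Krt19 is named only. Capitals mark matches to 4 motifs searched on both strands. The motif of TEAD factors was taken as GGAATG. For GATA factors the letters searched for were AGATAA. The box bound by Sp1 family proteins, called the GC box, was searched for as GGGCGG. The motif for AP-1 proteins was written as TGANTCA.
Upk3b: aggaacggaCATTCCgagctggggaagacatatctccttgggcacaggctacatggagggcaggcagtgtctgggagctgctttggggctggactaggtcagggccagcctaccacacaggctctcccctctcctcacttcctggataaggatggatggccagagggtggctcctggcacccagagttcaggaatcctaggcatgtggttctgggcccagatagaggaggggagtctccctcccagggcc
Krt7: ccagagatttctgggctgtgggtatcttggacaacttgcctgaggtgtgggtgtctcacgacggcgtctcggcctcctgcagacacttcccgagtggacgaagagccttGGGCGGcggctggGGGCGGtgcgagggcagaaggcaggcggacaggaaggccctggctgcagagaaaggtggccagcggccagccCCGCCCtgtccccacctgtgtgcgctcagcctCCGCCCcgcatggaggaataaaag
Igfbp2: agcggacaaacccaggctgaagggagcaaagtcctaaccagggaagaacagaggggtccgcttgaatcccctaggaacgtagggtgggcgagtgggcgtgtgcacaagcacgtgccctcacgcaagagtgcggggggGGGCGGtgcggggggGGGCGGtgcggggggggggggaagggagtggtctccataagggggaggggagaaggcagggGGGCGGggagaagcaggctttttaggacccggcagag
The Upk3b window held 1 match to the TEAD motif, 241 bases before the start, read as CATTCC on the printed strand. The Krt7 window held 4 GC boxes and the Igfbp2 window 3. Among 32851 promoter windows of this length, 12.6% held the TEAD motif, 9.99% the GATA motif, 32.7% the GC box and 6.75% the AP-1 motif. The Krt7 window lies inside the GENCODE gene model of Krt7 and covers 161 bases of an exon of the Krt7-205 transcript and 120 bases of the first exon of the antisense gene Gm671, so that it is upstream of the RefSeq start and not of every annotated transcript. A match describes the letters and not the binding of a factor.

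The rule used measured values, so all counts of the chosen cells describe them and test nothing. At E14.5, 9800 cells had at least 1000 genes, 336 of them had at least 3 UMIs of Upk3b, the absence of Foxl2 left 313 and the germ cell limit left 293. At E16.5 the same steps left 8284, 502, 449 and 446 cells. Upk3b itself had a median of 5 UMIs per chosen cell at E14.5 (highest 21) and of 8 at E16.5 (highest 52). Its pooled level was nearly the same at both ages, 527 CPM (UMIs per 1000000 UMIs of the class; exact Poisson 95% interval 502 to 553) and 536 (520 to 552). Levels throughout are pooled CPM over the cells of a class, and all intervals cover counting error only.

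The cells on either side of the Upk3b limit had similar levels of Krt19 and Igfbp2. At E14.5 the 85 cells with exactly 3 UMIs had Krt19 at 158 CPM, Krt7 at 183 and Igfbp2 at 1064. The 111 cells with 2 UMIs, just outside the limit, had 153, 132 and 1023 CPM. At E16.5 the 41 cells with 3 UMIs had 377, 124 and 551 CPM, and the 55 cells with 2 UMIs had 365, 139 and 539. Cells without Upk3b lay far lower, with Krt19 at 10.9 CPM over 5173 cells at E14.5 and at 19.4 over 3378 cells at E16.5. Muc16 differed more across the limit at E16.5, with 28.8 CPM at 2 UMIs and 58.7 at 3 UMIs. At E14.5 it was at 5.75, 1.17 and 9.51 CPM in cells with 1, 2 and 3 UMIs of Upk3b. It was seen there in 4.35%, 0.901% and 8.24% of the cells, so that these levels rest on few UMIs. The number of cells chosen depends on the limit.

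The label held for the markers that did not enter the rule. Krt19 reached 197 CPM in the epithelium and 10.9 in Gng13-high cells at E14.5, a ratio of 18 (15.2 to 21.5), and 464 and 72.2 CPM at E16.5, a ratio of 6.43 (6.00 to 6.89). Krt7 reached 203 and 30.7 CPM at E14.5 (6.62-fold, 5.87 to 7.47) and 189 and 51.8 at E16.5 (3.64-fold, 3.33 to 3.97). Igfbp2 reached 1185 and 439 CPM at E14.5 (2.70-fold, 2.59 to 2.81) and 715 and 150 at E16.5 (4.76-fold, 4.53 to 5.0). All 3 genes were higher in the epithelium than in the Gng13-high, Foxl2-positive, stromal and germ classes of the same library, at both ages. The Foxl2-positive class (244 and 1709 cells) holds other PG cells, the stromal class (675 and 1874) was chosen by at least 3 UMIs of Pdgfra and Nr2f2, and the germ class (2258 and 870) by Dazl and Ddx4.

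**Figure D1:**
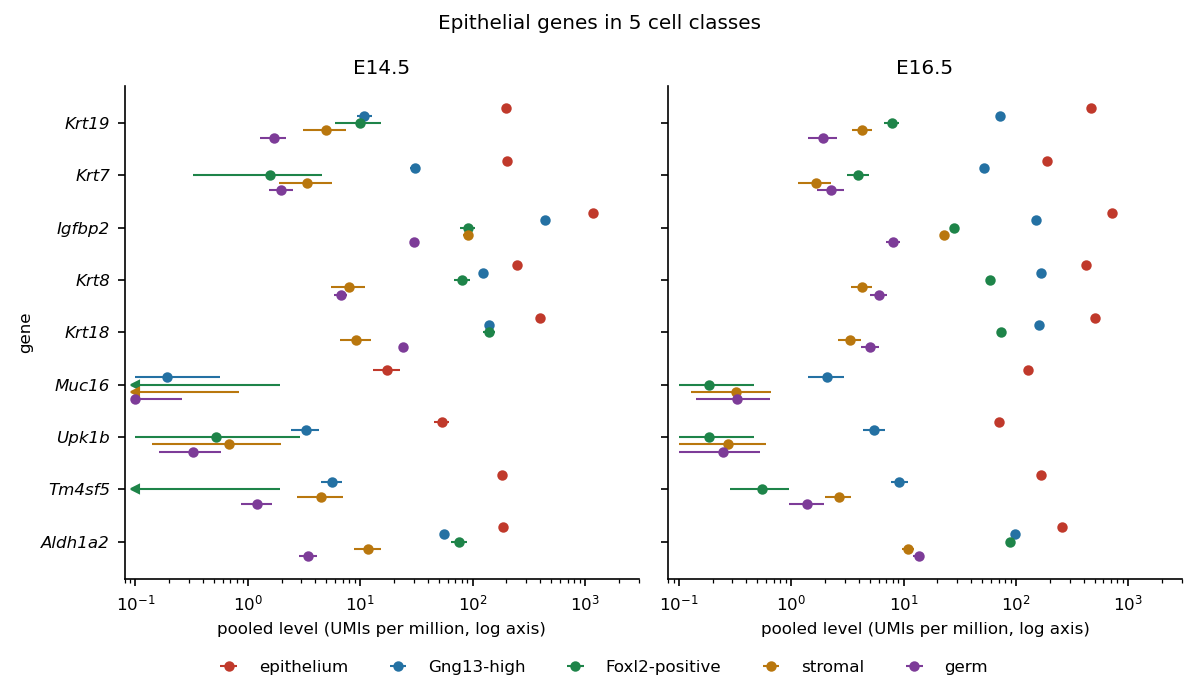
Pooled level (CPM, log axis) of 9 genes in 5 cell classes of the E14.5 and E16.5 libraries, with exact Poisson 95% intervals for counting error, triangles at 0.1 for levels of 0, and intervals drawn down to 0.1. Krt19 stood at 197 and 464 CPM in the epithelium, above all other classes, and Muc16 at 17.4 and 127 CPM.

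At the level of single cells, Krt19, Krt7 and Igfbp2 were all detected in 55.3% of epithelial cells at E14.5 (49.4 to 61.1) and in 82.1% at E16.5 (78.2 to 85.5), beside 1.41% and 13.6% of Gng13-high cells. After each cell was thinned to 2000 UMIs, which removes the difference in depth, these shares were 7.53% and 12.3% in the epithelium and 0.136% and 0.204% in Gng13-high cells. At that depth Krt19 was seen in 28.8% and 54.3% of epithelial cells, beside 2.05% and 11.3% of Gng13-high cells. None of the 3 markers was detected in 7 epithelial cells at E14.5 and in 0 of 446 at E16.5, which allows a share of up to 0.673%, taking 3 cells as the limit that a count of 0 allows.

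Genes of the early gonad were detected in the class to different degrees. Wt1, a transcription factor that the gonadal ridge needs to form, was at 475 and 467 CPM and detected in 96.6% and 99.3% of epithelial cells at E14.5 and E16.5. Lhx9, a LIM homeobox factor of the gonadal surface, was at 388 and 332 CPM. It was 1.32-fold (1.24 to 1.40) and 1.76-fold (1.67 to 1.86) higher than in Gng13-high cells. Gata4 was at 84.0 and 115 CPM. Nr5a1, the nuclear receptor that drives steroidogenic genes, was detected in 25.9% and 48.4% of the cells, at 33.8 and 43.1 CPM. Mesothelin (Msln), a membrane protein of the adult surface, was at 1.26 and 13.5 CPM, and E-cadherin (Cdh1) at 0 and 1.25.

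Against Gng13-high cells, 160 of 5690 genes compared were more than 2-fold higher in the epithelium at E14.5 (2.81%) and 188 more than 2-fold lower (3.30%). At E16.5, 267 of 6711 genes were higher (3.98%) and 195 lower (2.91%). The comparison took genes with a mean of at least 20 CPM over both classes and added 10 CPM to each level, and the genes of the rule stayed out. The median log2 difference over all genes was -0.04 and -0.06. Of the 5345 genes compared in both libraries, 121 were past 2-fold higher in both (2.26%) and 104 lower in both (1.95%). The 121 genes made up 75.6% of those higher at E14.5 and 45.3% of those higher at E16.5, and the 104 made up 55.3% and 53.3% of those lower. As the rule used this contrast, the counts describe the class. A gene high in a single class could also pass the minimum through that class alone, which favours calls in lists of such genes. The shares over all genes are the background for every list count below, and no list was tested against them.

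**Figure D2:**
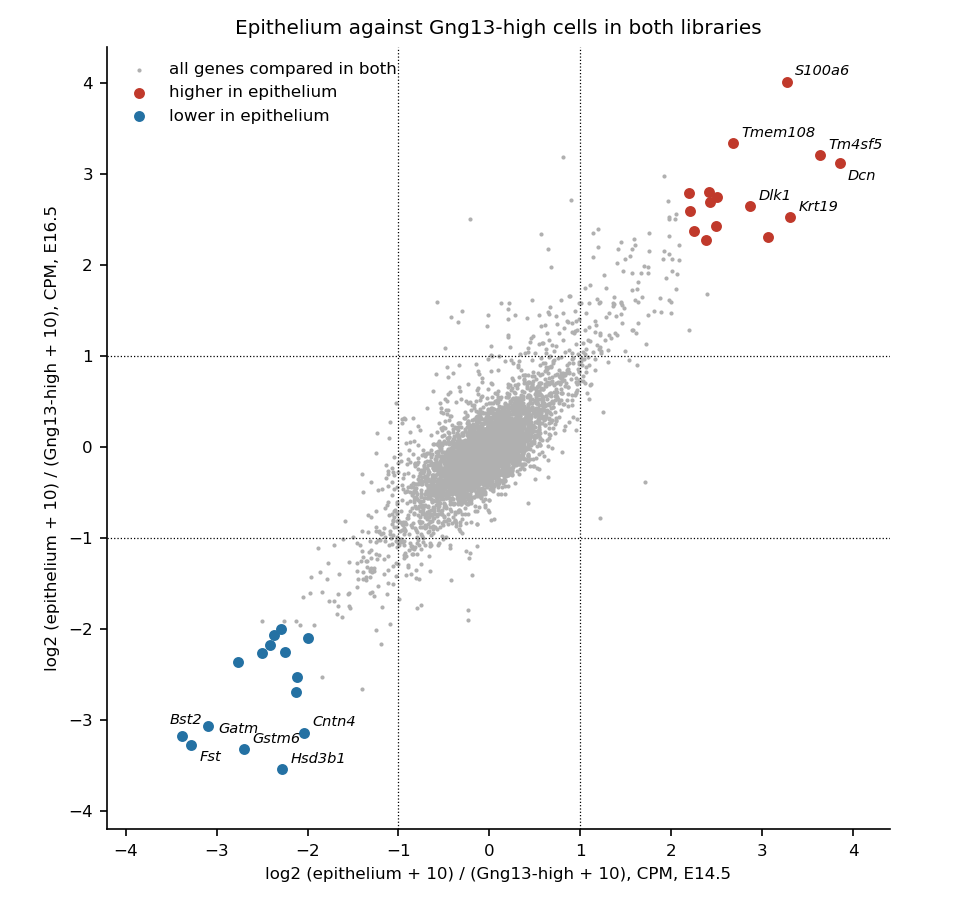
Log2 difference between epithelium and Gng13-high cells (10 CPM added) at E14.5 (x axis) and E16.5 (y axis) for each gene compared in both libraries, with dotted lines at 2-fold. Red points are the 15 named genes higher in the epithelium and blue points the 15 named genes lower, among them S100a6 with ratios of 22.3 and 63.1.

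Surface and mesothelial genes were mostly higher. Of 22 listed mesothelial and surface epithelial genes, 13 were compared at E14.5, of which 9 were past 2-fold higher and 1 lower (median log2 difference 1.45), and 16 at E16.5, of which 13 were higher and 1 lower (1.88). Upk1b, a partner uroplakin, was at 53.0 CPM in the epithelium and 3.27 in Gng13-high cells at E14.5 (16.2-fold, 11.8 to 22.6) and at 70.8 and 5.47 at E16.5 (12.9-fold). Lrrn4, a leucine-rich repeat membrane protein of mesothelium, was at 40.1 and 2.18 CPM and at 53.3 and 1.15. Both genes were almost absent from the comparison class. Muc16, the membrane mucin known as CA125, was at 17.4 and 0.192 CPM at E14.5 and at 127 and 2.09 at E16.5 (60.5-fold, 42.4 to 89.5). After thinning it was seen in 2.40% and 19.7% of epithelial cells and in 0% and 0.409% of Gng13-high cells. Tm4sf5, a tetraspan membrane protein, was at 184 and 5.58 CPM at E14.5 (32.9-fold, 26.2 to 41.7) and at 168 and 9.19 at E16.5 (18.3-fold, 15.3 to 22.0). The 1 lower gene at both ages was Aldh1a1. Aldh1a2, the enzyme that makes retinoic acid, was 3.31-fold and 2.59-fold higher, with 185 and 255 CPM in the epithelium.

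The keratin list gave 3 of 6 genes compared past 2-fold higher at E14.5 and 4 of 5 at E16.5, and 0 lower. Over all genes compared, 2.81% and 3.98% were higher. Krt18 and its partner Krt8 pair into the first filaments of simple epithelia. Krt18 was 2.85-fold (2.65 to 3.05) and 3.16-fold (3.0 to 3.32) higher, at 397 and 508 CPM in the epithelium. Krt8 was 2.02-fold (1.85 to 2.19) and 2.52-fold (2.39 to 2.66) higher, at 249 and 421 CPM. These keratins were thus shared with Gng13-high cells to a greater degree than Krt19. Krt5, a keratin of stratified epithelia, was at 0 in both epithelial libraries.

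Of the cell adhesion, junction and polarity genes, 4 of 12 compared were higher and 1 lower at E14.5, and 4 of 15 higher and 1 lower at E16.5. The shares over all genes were 2.81% and 3.98% higher and 3.30% and 2.91% lower. Ezr encodes ezrin, which ties the apical membrane to actin. It was at 88.7 and 19.3 CPM at E14.5 (4.59-fold, 3.89 to 5.42) and at 166 and 24.5 at E16.5 (6.78-fold, 6.03 to 7.63). Cdh3, or P-cadherin, was 6.61-fold (5.13 to 8.52) and 8.39-fold (6.65 to 10.7) higher, at 47.0 and 50.4 CPM. Podxl, an anti-adhesive sialomucin of apical surfaces, was 2.26-fold and 2.18-fold higher. Cgn, a tight junction protein, was the member of the list that lay lower, 2.32-fold and 2.22-fold.

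Of the basement membrane and matrix genes, 6 of 17 compared were past 2-fold higher at E14.5 (median log2 difference 0.61) and 11 of 25 at E16.5 (0.87), 0 were past 2-fold lower, and the others passed in neither direction. Fn1, fibronectin, was at 48.9 and 5.13 CPM at E14.5 (9.54-fold, 7.23 to 12.7) and at 113 and 8.92 at E16.5 (12.7-fold, 10.6 to 15.4). The fibrillar collagen Col3a1 was at 245 and 37.4 CPM (6.56-fold) and at 912 and 132 (6.89-fold). Decorin (Dcn), a collagen-binding proteoglycan, was at 269 and 9.36 CPM (28.8-fold, 24.1 to 34.5) and at 346 and 31.1 (11.1-fold, 10.1 to 12.3). Col3a1 and Dcn also belong to the list of mesenchymal markers, of which 6 of 7 compared were higher at E14.5 and 6 of 8 at E16.5. The summed level of those 12 markers was 978 and 2565 CPM in the epithelium, 190 and 456 in Gng13-high cells, and 3022 and 8916 in the stromal class. In the epithelium the most abundant of them was Dcn at E14.5 and Col3a1 at E16.5, and none was at 0. Without the epithelial cells rich in these markers, described further on, the median log2 difference of the matrix genes was 0.30 at both ages, and Fn1 was at 43.3 and 84.0 CPM.

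Among secreted factors, several IGF binding proteins were higher. Of the IGF genes compared, 3 of 12 were higher at E14.5 and 4 of 13 at E16.5, and 0 were lower. Higher shares over all genes were 2.81% and 3.98%. Igfbp5 was at 484 and 97.0 CPM at E14.5 (4.99-fold, 4.64 to 5.36) and at 1591 and 254 at E16.5 (6.27-fold, 6.05 to 6.50). Igfbp3 was 5.12-fold and 8.81-fold higher. Dlk1, a membrane-bound relative of Notch ligands, was at 356 and 40.2 CPM (8.86-fold, 8.03 to 9.79) and at 191 and 22.1 (8.63-fold, 7.66 to 9.76). Midkine (Mdk), a heparin-binding growth factor, was 3.80-fold (3.63 to 3.98) and 2.91-fold (2.77 to 3.06) higher. The calcium-binding protein S100a6 was at 152 and 6.80 CPM (22.3-fold, 18.1 to 27.8) and at 205 and 3.24 (63.1-fold, 47.4 to 85.9). Without 74 epithelial cells rich in mesenchymal transcripts, described further on, Dlk1 at E16.5 was at 75.4 CPM and S100a6 at 42.5, so that both ratios were smaller in the rest of the class. Tmem108, a transmembrane protein, was 38.8-fold (25.7 to 60.8) and 68.9-fold (45.6 to 109) higher.

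Most genes of the Wnt pathway were past 2-fold in neither direction. Of those compared, 1 of 15 was higher and 2 lower at E14.5, and 2 of 19 were higher and 1 lower at E16.5, with median log2 differences of -0.18 and -0.01 beside -0.04 and -0.06 over all genes. Wnt5a, a ligand of noncanonical Wnt signalling, was 4.27-fold (3.44 to 5.29) and 3.83-fold (3.33 to 4.41) higher in the epithelium. Wnt4, a ligand of ovarian fate, was 3.09-fold (2.77 to 3.46) and 2.47-fold (2.34 to 2.62) lower, and Wnt6 2.30-fold and 1.89-fold lower. Rspo1, the R-spondin that enhances canonical Wnt signalling in the ovary, differed little, with ratios of 1.10 (1.0 to 1.2) and 1.25 (1.17 to 1.35). Tgfb2, a ligand of the TGF-beta family, was 8.36-fold and 6.91-fold higher. At E16.5 it was at 239 CPM in 74 cells rich in mesenchymal transcripts, described further on, and at 37.8 in the other epithelial cells. Its ratio was thus smaller in the rest of the class. Inha, the inhibin alpha subunit, was 5.77-fold and 2.88-fold lower and Bmp2 1.95-fold and 2.95-fold lower. Of the BMP, TGF-beta and activin genes, 1 of 14 compared was higher and 2 lower at E14.5, and 2 of 16 higher and 3 lower at E16.5. For both lists the shares over all genes were 2.81% and 3.98% higher and 3.30% and 2.91% lower.

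Retinoid genes were divided too, with 1 of 7 compared higher and 2 lower at both ages. For the lists of this paragraph, the shares over all genes were 2.81% and 3.98% higher and 3.30% and 2.91% lower. Aldh1a2 was the higher one, while Aldh1a1, another retinaldehyde dehydrogenase, was 2.55-fold and 4.27-fold lower, and Dhrs3, a retinaldehyde reductase, 3.25-fold and 3.38-fold. Dlk1 was the one higher gene of 3 Notch pathway genes compared. Of the FGF and growth factor genes, 4 of 9 compared were higher and 1 lower at E14.5, and 3 of 8 higher and 0 lower at E16.5, with Mdk and Ptn among the higher ones at both ages. At E16.5 Ptn was higher only through 74 cells rich in mesenchymal transcripts, described further on, since it was at 55.4 CPM in the other epithelial cells and at 83.0 in Gng13-high cells. Of the genes of epithelial to mesenchymal transition, 3 of 11 compared were higher at E14.5 and 4 of 11 at E16.5, among them Fn1 and Tgfb2 at both ages, and 0 were lower.

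Among the early gonad transcription factors, 2 of 15 compared were higher and 2 lower at E14.5, and 2 of 16 higher and 1 lower at E16.5. All genes together gave 2.81% and 3.98% higher and 3.30% and 2.91% lower. Nr2f2, the orphan receptor COUP-TFII, was 3.6-fold (3.14 to 4.12) and 2.85-fold (2.55 to 3.18) higher. Without 74 cells rich in mesenchymal transcripts it was at 70.7 CPM at E16.5 beside 35.1 in Gng13-high cells, which is short of 2-fold once 10 CPM is added to each. Irx3, an Iroquois factor of PG cells, was 3.36-fold (3.0 to 3.77) and 2.76-fold (2.58 to 2.95) lower. Emx2, which the gonadal epithelium needs, had ratios of 1.07 (0.950 to 1.2) and 0.813 (0.760 to 0.870).

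Genes of PG cells lay lower. Of the pregranulosa genes compared, 9 of 17 were past 2-fold lower at E14.5 (median log2 difference -1.02) and 7 of 18 at E16.5 (-0.76), and 0 were higher. Follistatin (Fst), the secreted activin antagonist, was at 77.0 CPM in the epithelium and 838 in Gng13-high cells at E14.5 (10.9-fold lower, 9.58 to 12.4), and at 57.4 and 638 at E16.5 (11.1-fold lower, 10.1 to 12.2). Kitl, the ligand by which somatic cells signal to Kit on germ cells, was at 221 and 482 CPM and at 574 and 1128. Kctd14, a protein with a potassium channel tetramerisation domain, was at 351 and 1557 CPM and at 287 and 1704. These genes were therefore lower in the epithelium but not at 0, and the part of free RNA in these levels was not measured. Bst2, an interferon-inducible membrane protein, was 13.4-fold (11 to 16.4) and 11.9-fold (10.4 to 13.6) lower.

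Hsd3b1, Gatm, Gstm6, Cntn4 and Clu were among the 15 genes named as lowest by rule. Hsd3b1, which converts pregnenolone to progesterone, was at 2.53 and 50.8 CPM at E14.5 (20.1-fold lower, 10.2 to 46.8) and at 1.25 and 121 at E16.5 (96.9-fold lower, 52.6 to 202). Gatm, the first enzyme of creatine synthesis, was 15.4-fold (11 to 22.1) and 14.6-fold (11.9 to 18.1) lower. The glutathione transferase Gstm6 was 8.81-fold and 14.8-fold lower. The contactin Cntn4, a neuronal adhesion molecule, was 10.3-fold (6.30 to 18.1) and 20.6-fold (15.7 to 27.6) lower. The secreted chaperone clusterin (Clu) was 5.63-fold and 5.39-fold lower. The study drew 2 lists from these same cells, which are therefore no independent evidence. Its epithelial pathway list gave 2 of 17 genes higher and 6 lower at E14.5, and 3 of 17 higher and 5 lower at E16.5. Its bipotential pathway list gave 1 of 14 higher and 2 lower at E14.5, and 2 of 17 higher and 3 lower at E16.5. All genes together gave 2.81% and 3.98% higher and 3.30% and 2.91% lower.

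Genes that respond to stress and to dissociation were more uneven between the ages. Of the stress genes compared, 2 of 19 were higher and 1 lower at E14.5, and 5 of 20 higher and 1 lower at E16.5. For both lists of this paragraph, the shares over all genes were 2.81% and 3.98% higher and 3.30% and 2.91% lower. Their summed level was 9653 CPM in the epithelium and 9354 in Gng13-high cells at E14.5, and 9865 and 7831 at E16.5. Atf3, a stress-induced transcription factor, was at 329 and 184 CPM at E14.5 and at 721 and 70.2 at E16.5, a ratio of 10.3. Cyr61, a matrix-bound signalling protein induced by serum and strain, was at 592 and 685 CPM and at 350 and 53.1. Of the metallothionein and cystatin genes, 1 of 10 compared was higher and 3 lower at E14.5, and 3 of 9 higher and 2 lower at E16.5. The metallothionein Mt1 was at 681 and 914 CPM and at 1246 and 456. The part of dissociation in these values was not tested.

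Cell division genes lay higher in the epithelium. Of the G2 and M phase genes compared, 17 of 18 were past 2-fold higher at E14.5 (median log2 difference 1.94) and 22 of 22 at E16.5 (1.96). The 30 listed genes summed to 289 and 376 CPM in Gng13-high cells. Some could thus reach the minimum of 20 CPM only through the epithelium, and the counts are partly set by that minimum. Top2a, the topoisomerase that untangles chromosomes, was at 152 CPM in the epithelium at E14.5 (8.19-fold higher, 7.06 to 9.51) and at 299 at E16.5 (8.31-fold, 7.57 to 9.15). Birc5, or survivin, was 8.01-fold (6.93 to 9.27) and 9.30-fold (7.86 to 11.1) higher. Of the S phase genes, 5 of 22 compared were higher at E14.5 and 4 of 20 at E16.5. Pclaf, a PCNA-associated factor, was 11.6-fold and 7.63-fold higher. Of the cell cycle inhibitors, 0 of 9 compared were higher and 2 lower at E14.5, and 1 of 10 was higher and 1 lower at E16.5. The shares over all genes were 2.81% and 3.98% higher and 3.30% and 2.91% lower. The cyclin-dependent kinase inhibitor Cdkn1b was 4.27-fold (3.54 to 5.17) and 6.27-fold (5.84 to 6.75) lower, while Cdkn1c was at 1551 and 2741 CPM and at 1834 and 2059.

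Per cell, 26.7% of epithelial cells at E14.5 (78 of 292, 21.7 to 32.2) and 16.4% at E16.5 (73 of 446, 13.1 to 20.1) had at least 3 UMIs of the listed G2 and M phase genes after thinning to 2000 UMIs. The shares in Gng13-high cells were 2.0% (1.46 to 2.68) and 1.94%, and in Foxl2-positive cells 2.05% and 4.4%. The stromal class had 40.3% and 21.6%. Without thinning, the shares were 52.2% and 52.7% in the epithelium, 12.7% and 36.0% in Gng13-high cells and 10.7% and 27.1% in Foxl2-positive cells. The summed level of the genes was 1705 CPM in the epithelium at E14.5 and 2367 at E16.5, beside 289 and 376 in Gng13-high cells. Since the thinned share was lower and the summed level higher at E16.5, no order between the ages is read from them. Single genes differed too, with Mki67 seen in 4.11% and 14.6% of thinned epithelial cells and Top2a in 15.8% and 13.2%. The epithelium stood above the PG classes in both libraries by each measure.

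**Figure D3:**
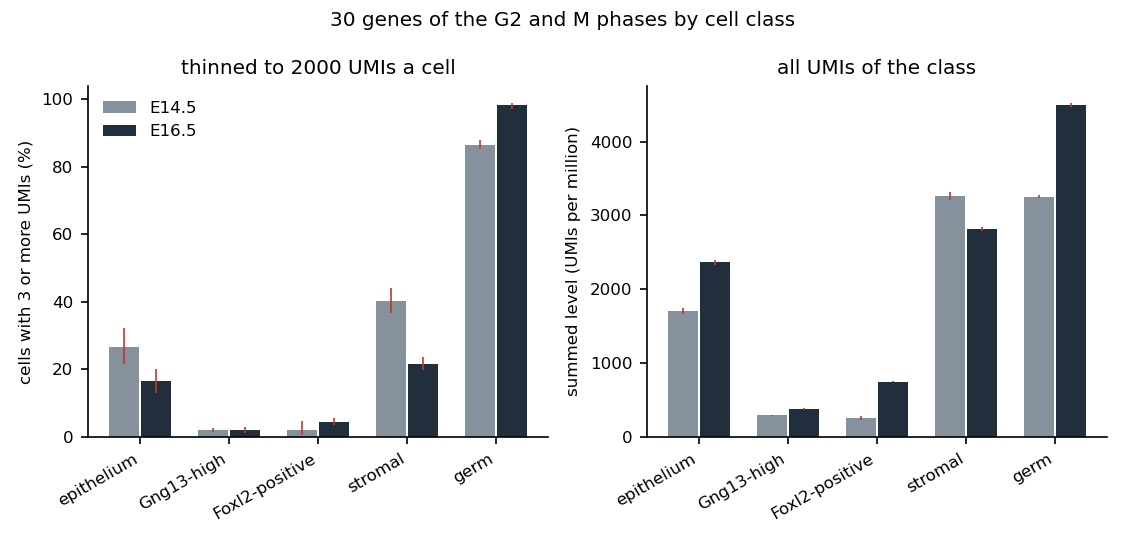
Share of cells with at least 3 UMIs of the G2 and M phase genes after thinning to 2000 UMIs (percent, exact binomial 95% intervals) and summed level of these genes (CPM) in 5 cell classes of the E14.5 and E16.5 libraries. The epithelium stood at 26.7% and 16.4%, between the Gng13-high cells at 2.0% and 1.94% and the stromal class at 40.3% and 21.6%.

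The epithelial cells varied among themselves along Gng13, a G protein gamma subunit that chose the Gng13-high cells and that the rule did not limit in the epithelium. At E14.5, 76 cells had no UMI of Gng13, 86 had 1 to 4 and 131 had at least 5. At E16.5 these numbers were 77, 105 and 264. At least 5 UMIs of Gng13 were thus present in 44.7% and 59.2% of the epithelial cells, so that Gng13 does not set PG cells apart from the epithelium. Cells without Gng13 were shallower, with median UMIs of 6636, 8764.5 and 11649 over the 3 bins at E14.5 and of 13889, 16995 and 17416.5 at E16.5. Krt7, Krt19 and Wt1 differed less between the bins than the genes given next. Krt7 was at 154, 217 and 214 CPM at E14.5 and at 201, 200 and 181 at E16.5, and Wt1 at 481, 536 and 443 and at 451, 517 and 453. Krt19 was at 152, 208 and 207 CPM and at 400, 460 and 480. The whole keratin list was lower in cells without Gng13, at 1121, 1591 and 1740 CPM and at 1843, 2558 and 2800, as was the mesothelial and surface list, at 2552, 3847 and 4029 and at 3369, 4279 and 4401.

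Other genes were ordered along the bins in both libraries, and so were sums of markers of other lineages. The 12 mesenchymal markers summed to 2108, 1121 and 487 CPM over the bins at E14.5 and to 7831, 4138 and 766 at E16.5, and the mural markers to 253, 95.7 and 29.6 and to 654, 276 and 57.6. Their part in the order of other genes was not tested. S100a6 was at 425, 198 and 27.3 CPM at E14.5, a ratio of 15.6 (11.3 to 21.8) between the first and the last bin, and at 756, 341 and 26.7 at E16.5 (28.3, 23.6 to 34.2). Itm2a, an integral membrane protein of mesenchymal precursors, was at 628, 231 and 64.6 CPM and at 984, 414 and 40.7. Pleiotrophin (Ptn), the relative of midkine, was at 614, 245 and 52.2 CPM and at 839, 368 and 60.8. These 3 genes, with Dcn, Col1a1 and Dlk1, were highest in cells without Gng13. In the opposite order, Kitl was at 68.9, 190 and 293 CPM and at 115, 439 and 730, and Igfbp2 at 533, 1203 and 1417 and at 386, 619 and 827. Lgr5, a receptor for R-spondins, was at 27.2, 47.9 and 78.8 CPM and at 40.2, 148 and 254. The pregranulosa list summed to 1001, 1634 and 2285 CPM at E14.5, beside 4428 in Gng13-high cells, and to 1311, 2300 and 3238 at E16.5, beside 5779. Even epithelial cells with at least 5 UMIs of Gng13 thus lay below the Gng13-high cells in this sum.

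**Figure D4:**
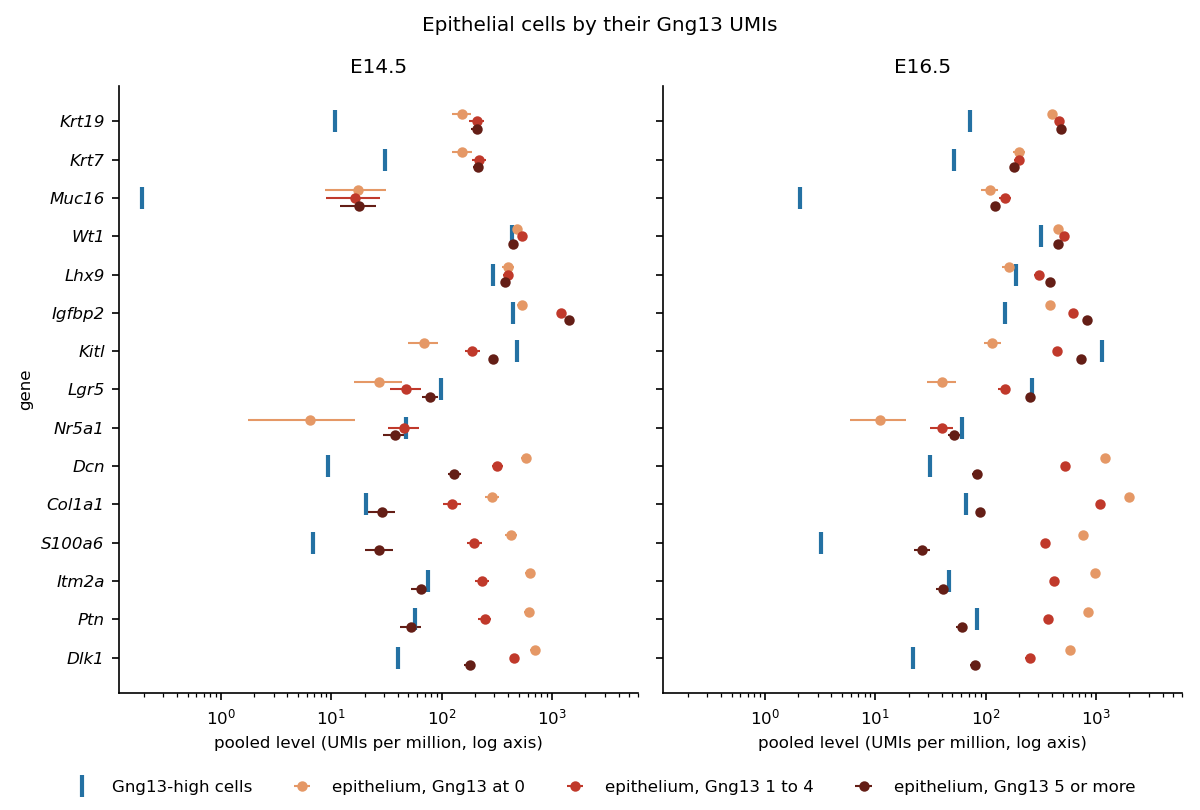
Pooled level (CPM, log axis) of 15 genes in epithelial cells with 0, 1 to 4 or at least 5 UMIs of Gng13, at E14.5 and E16.5, with exact Poisson 95% intervals and a blue tick for the Gng13-high cells of the library. S100a6 ran from 425 down to 27.3 CPM at E14.5 and from 756 to 26.7 at E16.5, and Kitl from 68.9 up to 293 and from 115 to 730.

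A subset rich in mesenchymal transcripts lay within the chosen cells. At least 0.5% of the UMIs came from the 12 mesenchymal markers in 12 epithelial cells at E14.5 (4.10%) and in 74 at E16.5 (16.6%), beside 0 and 13 (1.33%) of the Gng13-high cells. Gng13 was at 0 in 63.5% of these cells at E16.5 (51.5 to 74.4) and in 8.06% of the rest. At E16.5 they carried Upk3b at 515 CPM and the rest at 540, Krt19 at 417 and 472, Krt7 at 198 and 187, and Wt1 at 457 and 469. Krt19, Krt7 and Wt1 were thus about as high in the subset as in the rest. The rule asked for Upk3b in both groups, so its similar level shows nothing further. Not all surface genes were alike, since Krt8, Krt18 and Igfbp2, given below, were lower in the subset. Col1a1, a fibrillar collagen chain, was at 3538 and 71.2 CPM, Dcn at 1609 and 122, Ptn at 1306 and 55.4, S100a6 at 1116 and 42.5 and Nr2f2 at 264 and 70.7. Krt8 was at 110 and 477 CPM, Krt18 at 106 and 580, Igfbp2 at 270 and 794, Lhx9 at 132 and 368 and Nr5a1 at 4.96 and 49.9. The median depth was 14451.5 UMIs in the subset and 17201 in the rest. No doublet caller was run, so a mesothelial cell with such genes and a droplet with 2 cells cannot be told apart.

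Without that subset, Dcn at 122 CPM and S100a6 at 42.5 CPM at E16.5 were still above the Gng13-high cells at 31.1 and 3.24, and so were Dlk1 at 75.4 beside 22.1 and Col3a1 at 336 beside 132. Ptn turned, at 55.4 beside 83.0. The median log2 difference of the mesenchymal markers was 0.42 without the subset and 1.75 with it, a fall that follows from the choice of the subset by these same genes. With the subset left out, every count of genes past 2-fold stayed within 1.5 times of its value over all cells.

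Genes that were highest in epithelial cells without Gng13 were among those that varied most from cell to cell at 2000 UMIs. Among 2585 genes with a mean of at least 0.1 UMIs per cell at E14.5, the median Fano factor, the variance over the mean, was 1.03, and 22 genes exceeded 2. At E16.5 these values were 1.04 over 3191 genes and 40. Itm2a had 4.48 at E14.5, seen in 23.6% of the cells, Ptn 4.05 in 17.8% and S100a6 3.33 in 16.4%. At E16.5 Col1a1 had 8.52 in 22.4% of the cells and Top2a 4.11 in 12.1%. The long noncoding RNA Malat1 had 6.20 and 7.47, and Gm42418, a transcript that overlaps ribosomal RNA, had 5.14 and, at E16.5, the highest value among the genes kept by the naming rule, 24.1. Igfbp2, at 1.91 and 1.79, and Kitl, at 1.21 and 1.61, stayed below 2.

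Cells richer in Upk3b were also richer in Krt19 and Muc16 at both ages. Over cells with 3 to 4, 5 to 9 and at least 10 UMIs of Upk3b, Krt19 was at 161, 204 and 251 CPM at E14.5 (139, 113 and 41 cells) and at 366, 449 and 510 at E16.5 (86, 175 and 185 cells). Muc16 was at 13.3, 19.4 and 21.4 CPM and at 59.8, 109 and 165. These bins follow a gene of the rule and differ in depth.

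Markers of other lineages differed widely in their level in the class. The 12 germ cell markers summed to 122 and 75.5 CPM in the epithelium, beside 6082 and 7967 in the germ class, with Rec8 at 39.1 and 39.3 CPM as the most abundant. The 12 endothelial markers summed to 123 and 188 CPM, beside 61.9 and 116 in Gng13-high cells, led by Ramp2 at E14.5 and Kdr at E16.5. Immune markers summed to 9.47 and 9.86 CPM, led by Cd68 at E14.5 and Csf1r at E16.5. The 12 erythroid markers summed to 2951 and 2769 CPM, led by Hbb-bs at 1289 and 1500, and to 6143 and 4836 CPM in Gng13-high cells. At least 0.5% of the UMIs were erythroid in 4 epithelial cells at E14.5 and in 8 at E16.5, while the median share was 0.0934% and 0.0377%. At E14.5 the sum was 11124 CPM in the epithelial cells without Gng13, 1005 in those with 1 to 4 UMIs of it and 915 in those with at least 5. Mesonephric tubule markers summed to 281 and 332 CPM, led by Bcam and Emx2, with the tubule genes Cdh16 and Cldn8 at 0 at both ages. Mural cell markers summed to 91.5 and 195 CPM, led by Tagln. Transcripts of Y-linked genes were found in 0 of 293 and 0 of 446 epithelial cells. With 3 cells again taken as the limit of a count of 0, this allows shares of up to 1.02% and 0.673%. Of the 424 cells that the same rule chose at E11.5, 37.7% had such a transcript, as did 7.59% of the 382 at E12.5.

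Between E14.5 and E16.5, 724 of 6256 genes were more than 2-fold higher in the epithelium at E16.5 (11.6%) and 151 lower (2.41%), with a median log2 difference of 0.15. When the libraries were scaled by the median of gene ratios in place of the totals, 475 genes were higher and 267 lower. Of the 724 genes, 404 (55.8%) were also past 2-fold higher in Gng13-high cells, 328 (45.3%) in Foxl2-positive cells, 441 (60.9%) in the stromal class and 384 (53.0%) in the germ class. Over all 6256 genes, 8.42%, 7.72%, 10.6% and 17.7% were past 2-fold higher in these classes. Of the 151 genes, 104 (68.9%) were also lower in Gng13-high cells, beside 2.86% of all genes. Many of the differences were therefore shared between classes of the same libraries. The ribosomal RNA-related transcripts AY036118 and Gm42418 were among the 3 highest genes, with log2 differences of 4.98 and 3.51 in the epithelium and of 5.53 and 5.60 in Gng13-high cells, and between them stood the histone gene Hist1h1b with 3.70 in the epithelium. Among the lower genes, Id2, an inhibitor of helix-loop-helix factors, was at 491 and 127 CPM (log2 difference -1.88, and -1.90 in Gng13-high cells). Marcksl1, a substrate of protein kinase C, was at 724 and 201 CPM (-1.80, and -1.77 in Gng13-high cells). With E18.5 in place of E16.5, all 4 genes were within 2-fold of E14.5 in the epithelium, with log2 differences of 0.34 for AY036118, 0.48 for Gm42418, -0.03 for Id2 and -0.32 for Marcksl1. With P1 in place of E16.5, AY036118 (1.31) and Id2 (-2.23) stayed past 2-fold in the same direction, while Gm42418 (-0.29) and Marcksl1 (-0.58) did not.

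Of the mesothelial and surface genes compared between the ages, 4 of 18 were past 2-fold higher in the epithelium at E16.5. Of the basement membrane and matrix genes, 15 of 25 were, beside 11.6% of all genes. In both lists 0 were past 2-fold lower. The matrix genes summed to 2537 and 5284 CPM in the epithelium, 1477 and 2114 in Gng13-high, 2125 and 3604 in Foxl2-positive and 4993 and 11484 in stromal cells. In the epithelium the sum was 2442 CPM at E18.5 and 4131 at P1. Within the E16.5 epithelium it was 12199 CPM in cells without Gng13 and 2875 in those with at least 5 UMIs of it. Muc16 was 7.30-fold higher at E16.5 (5.56 to 9.76), with a log2 difference of 2.32 in the epithelium, 0.25 in Gng13-high cells and 0.05 in stromal cells. After thinning it was seen in 0% and 0.409% of Gng13-high cells and in 0% and 0.107% of stromal cells. At such levels the 10 CPM added keeps the log2 difference small. Whether Muc16 rose in these 2 classes too is therefore not read from it. Krt19 was 2.36-fold higher (2.17 to 2.57), yet its log2 difference of 1.2 was smaller than the 1.97 of Gng13-high cells. Fbln2, a matrix fibulin, was 4.72-fold higher (3.87 to 5.81), with log2 differences of 1.95 in the epithelium, -0.07 in Gng13-high cells and 1.36 in stromal cells. Most of that difference lay in cells rich in mesenchymal transcripts, outside of which Fbln2 was at 21.2 CPM at E14.5 and at 42.2 at E16.5. Epcam, an epithelial adhesion molecule, was 4.44-fold higher (3.57 to 5.58), at 28.1 and 125 CPM, with 1.61 in Gng13-high cells on the log2 scale. Krt7 differed by less than its counting error, with a ratio of 0.929 (0.846 to 1.02), and so did Wt1, with 0.983 (0.925 to 1.04). Among the genes of stress, Atf3 was higher at E16.5 in the epithelium and lower in Gng13-high cells, by the levels given above.

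Across all 7 libraries, the same rule chose 424, 382, 293, 446, 82, 117 and 134 cells from E11.5 to P5. Krt19 was at 101, 142, 197, 464, 970, 922 and 1310 CPM in that order, and Upk1b at 51.9, 51.4, 53.0, 70.8, 149, 151 and 192. Krt19 and Upk1b were therefore lowest in the 3 earliest libraries and highest at P5. Dlk1 ran the other way, at 698, 399, 356, 191, 119, 153 and 66.0 CPM. Without the 74 cells rich in mesenchymal transcripts it was at 75.4 CPM at E16.5. The E18.5 and P1 values keep any such cells, so that no order is read between them and this value. The listed mesothelial and surface genes together summed to 1971, 2283, 3689, 4222, 6186, 6597 and 7008 CPM, with E14.5 and E16.5 between the earlier and the later libraries. The E11.5 and E12.5 cells include male ones by their Y-linked transcripts, so that sex differs along the series as well as age. The G2 and M phase genes summed to 4238, 3354, 1705, 2367, 933, 1598 and 2058 CPM, while the share of cells with at least 3 UMIs of them after thinning was 64.2%, 42.4%, 26.7%, 16.4%, 6.10%, 23.9% and 23.1%, so that the place of E16.5 differs between the measures. The mesenchymal markers summed to 1471, 920, 978, 2565, 621, 1237 and 1477, with the highest value at E16.5. That value includes the 74 cells rich in these markers, and without such cells the log2 difference of Col1a1 between E16.5 and E14.5 was 0.06 in place of 2.39. Some genes were higher at E16.5 than in both neighbouring libraries. Muc16 was at 4.82, 16.7, 17.4, 127, 50.2, 32.0 and 81.6 CPM from E11.5 to P5, and Kitl at 12.1, 97.5, 221, 574, 240, 148 and 104. Igfbp5 was at 1591 CPM at E16.5 beside 484 and 916 at E14.5 and E18.5. Igfbp2 went below its neighbours, at 715 CPM beside 1185 and 1229. These E16.5 values belong to the library that stood apart by its barcodes, and age and library cannot be told apart there.

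**Figure D5:**
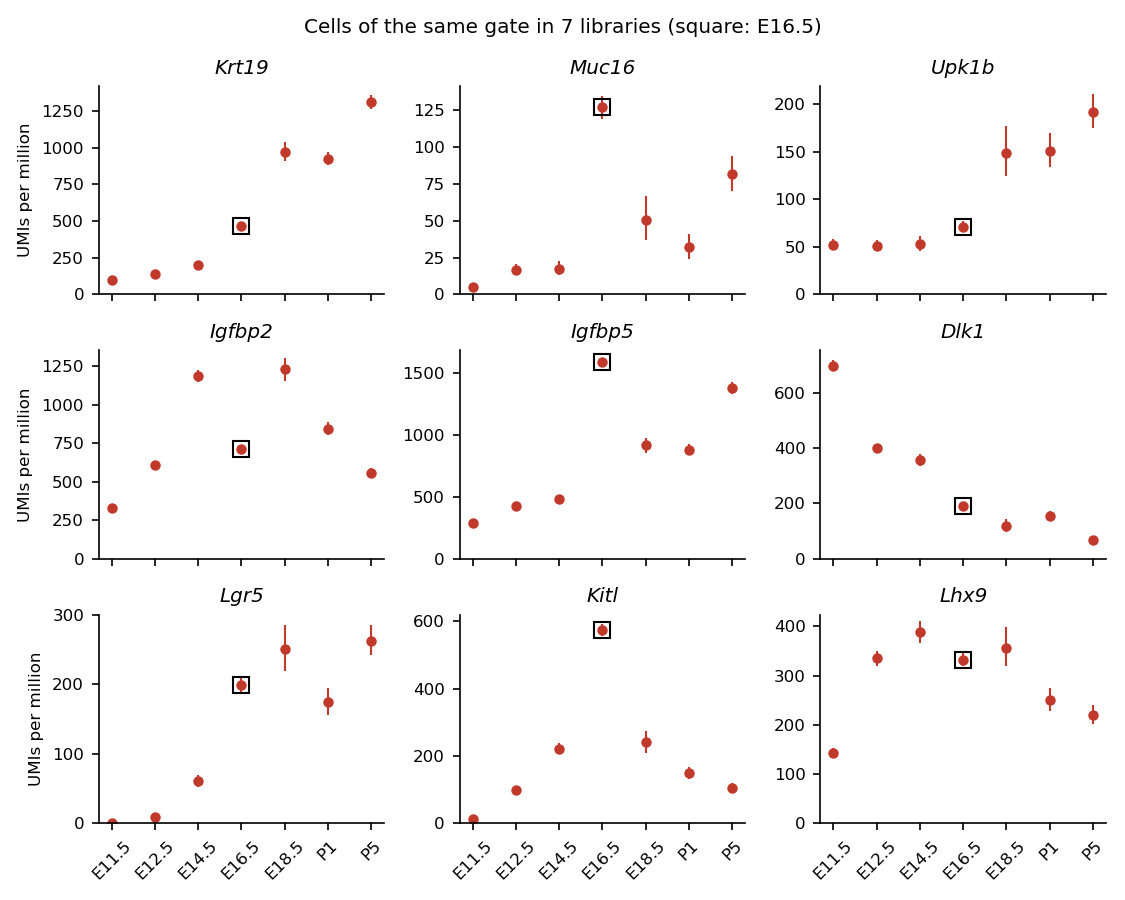
Pooled level (CPM) of 9 genes in the cells chosen by the same rule in each of the 7 libraries, from E11.5 to P5, with exact Poisson 95% intervals and a square for the E16.5 library. Krt19 was at 101 CPM at E11.5 and 1310 at P5, Dlk1 at 698 and 66.0, and Muc16 and Kitl had their highest levels at E16.5 (127 and 574).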

How the data were processed

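The authors dissociated pooled gonads or ovaries with trypsin, captured cells on the 10x Genomics platform and deposited, for each of the 7 libraries, a filtered matrix of UMI counts over 31053 genes. Per the labels, reads were processed with Cell Ranger on mm10 and cells analysed with Seurat. The deposited counts are raw and whole, and no cell annotation was used here.

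Cells were chosen by their UMIs with Python 3.11.15, numpy 2.4.6, scipy 1.17.1 and pandas 2.3.3, and figures drawn with matplotlib 3.10.9. The members and the 27 gene lists were chosen with earlier results of these data known, as was the contrast. With 1 library per age the ages were not tested, and the contrast of the classes was not tested because the rule fixed it. UMIs were summed over the cells of a class and divided by their total (CPM). Intervals at 95.0% are exact Poisson for levels, exact conditional for ratios and exact Clopper-Pearson for shares, for counting error only. Genes with a mean of at least 20 CPM were compared after 10 CPM was added to each level, and called past 2-fold. Shares were also computed after thinning each cell to 2000 UMIs, which left out 1 epithelial cell at E14.5. Foxl2-positive cells had at least 2 UMIs of Foxl2 and at most 1 of Gng13, and germ cells at least 10 of Dazl and Ddx4.

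Genes named were the 15 highest and 15 lowest by the smaller of the log2 differences of both libraries, the 10 highest and 10 lowest between ages, the 10 of highest Fano factor, and genes of the lists, without globin, mitochondrial, ribosomal protein and Y-linked genes. A few genes that these rules take are not reported here. No doublet caller was run. A deposited count that came from free RNA cannot be told from one of the cell. The calculations were tested on simulated data. Alternatives covered the limits of the rule, depth, the added CPM, the expression minimum, the scaling and the cell cycle score. Promoter sequences came from RefSeq (GRCm38.p6).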

Additional observations from a re-analysis of the deposited data

Results flagged for a closer look

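Atf3 moved in opposite directions between the ages in the epithelium and in the Gng13-high cells of the same libraries. The log2 difference of E16.5 over E14.5 was 1.11 in the epithelium and -1.27 in Gng13-high cells. With 1 library per age, the difference was not tested.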

How the results depend on the processing

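No paired analysis was possible because each age has 1 pooled library and the contrast of classes within a library was fixed by the rule and given no test. Over all alternatives run, named genes of the contrast with Gng13-high cells kept their direction and their side of 2-fold in 950 of their values, fell short of 2-fold in 9 and reversed in 1, which was Ube2c at E16.5 (log2 difference -0.03) with cells holding a G2 or M phase UMI left out. The cause was not tested for any value below unless the setting itself removes cells or genes. Cell numbers depended on the rule. At E14.5 they were 113 with at least 6 UMIs of Upk3b, 140 after thinning to 5000 UMIs, 144 with Krt19 in place of Upk3b, 162 without cells of at least 5 UMIs of Gng13 and 140 without cells with a G2 or M phase UMI. At E16.5 they were 242 after thinning, 182 without cells of at least 5 UMIs of Gng13, 258 without G2 or M phase UMIs and 272 without cells holding Pax8, Pecam1, Ptprc or Pdgfra.

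Without epithelial cells of at least 5 UMIs of Gng13, 249 genes were higher and 288 lower at E14.5, 437 and 330 at E16.5, and 190 and 179 in both. With Krt19 in place of Upk3b, 112 were lower at E16.5 and 64 in both. With 50 CPM added, 48 were higher and 46 lower at E14.5, 93 and 58 at E16.5, 36 and 28 in both, and 129 and 61 between the ages, and with 2 CPM added 1090 were higher at E16.5. With a minimum of 5 CPM, 255, 415 and 203 were higher at E14.5, E16.5 and in both. With a minimum of 50 CPM, 76 and 104 were higher and lower at E14.5, 135 and 113 at E16.5, 54 and 53 in both, and 376 were higher between the ages. Scaling by the median ratio gave 475 and 267 between the ages.

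The share of cycling cells at E16.5 was 12.0% with the rule applied to thinned cells, 12.3% with Krt19 as the chosen gene, 22.0% without Gng13-rich cells, 12.2% without the tenth of cells richest in UMIs and 11.4% without cells of other lineages. At E14.5 and E16.5 it was 37.0% and 24.3% after thinning to 5000 UMIs, 52.2% and 52.7% without thinning, and 52.4% and 42.2% with 1 UMI as the minimum. It was not computed with cycling cells left out.

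In alternatives chosen after seeing the data, E18.5 in place of E16.5 gave 247 genes higher and 90 lower than E14.5, and P1 gave 327 higher. With E18.5, the log2 difference reversed for Hist1h1b (-0.41), Mki67 (-0.68), Col1a1 (-1.11) and Hnrnpa0 (-0.08), which were among the 10 genes highest at E16.5. It also reversed for Ccnb1ip1 (0.04), Gm12216 (0.30) and Rnaset2a (0.40), which were among the 10 lowest. With P1 it reversed for Gm42418 (-0.29), Lars2 (-0.46) and Hnrnpa0 (-0.03), all among the 10 highest. Of the medians of gene lists, 214 stayed within their range and 10 moved. Without epithelial cells of at least 5 UMIs of Gng13, the E16.5 medians were 1.0 for keratins and 1.58 for matrix genes. Without cells with a G2 or M phase UMI, the medians of these genes were 0.85 at E14.5 and 0.13 at E16.5. The E16.5 median of the mesenchymal markers ranged from 0.42 without the cells rich in them to 3.37 without cells holding Pax8, Pecam1, Ptprc or Pdgfra, and at E14.5 it was 2.22 without the tenth of cells richest in UMIs. Depth limits low genes most, since a pooled count of 0 is taken to allow up to 3 UMIs.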
